A study of Homo sapiens with 20 samples.

Results

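The genes described here are 44 genes of the G2 phase and mitosis, chosen by gene symbol from a fixed list, and each symbol matched 1 of the 60232 rows of the expression table. RNA sequencing covered 5 gastric cancer cell lines, each with 2 libraries after 72 h of the solvent DMSO and 2 after 72 h of DCB (decitabine), in 10 groups and 20 libraries. YCCEL1 and SNU719 are EBV+ (they carry Epstein-Barr virus), whereas AGS, HGC27 and SNU16 are EBV-, and the study assigns the CpG island methylator phenotype (CIMP+) to YCCEL1, SNU719 and AGS. All lines are described as wild type, and the labels give no DCB dose, although the study's text states one. By the labels, YCCEL1 and HGC27 were grown in EMEM and the other lines in RPMI, whereas the study's methods name RPMI alone. If the labels hold, medium and line cannot be told apart.

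Decitabine is a cytidine analog that cells build into DNA, where it traps DNA methyltransferases, so that methylation is lost as cells divide. The 44 genes encode the machinery that takes a replicated genome through division: cyclin B and CDK1 start mitosis, the Aurora and Polo-like kinases build the spindle, the checkpoint holds anaphase until every kinetochore is attached, and a contractile ring then separates the daughter cells. Their transcripts accumulate in G2 and M and are low in resting cells, and the group is widely read as a measure of proliferation. In bulk RNA, fewer cells in G2 and M and less RNA of a gene in each such cell cannot be told apart.

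Values are estimated counts normalized between libraries before deposit, called normalized counts here. All 44 genes were above 0 in all 20 libraries, with means from 89.4 to 2219 and a lowest single value of 25.7. A gene is called higher or lower where limma on log2(value + 1), fitted to 27350 genes, gives a Benjamini-Hochberg adjusted p below 0.05, and fold changes are differences of log2(value + 1), DCB minus DMSO. Whether the 2 libraries of a group came from separate cultures is not stated, and p-values then reflect only how far the libraries of a group differ, which may be technical variation.

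The lines did not all carry the markers of gastric epithelium. In YCCEL1, SNU719 and SNU16 all 5 epithelial markers were expressed strongly (EPCAM means 4700 to 13733), and in AGS 4 of them were, with CDH1 at 85.8 in DMSO and 131 in DCB. In the libraries labelled HGC27 the epithelial markers were near 0, with EPCAM at 28.3 and KRT18 at 22.3 in DMSO, while VIM stood at 72246 and the fibroblast markers COL3A1 and DCN at 34099 and 2206. Of the 5 gastric markers, GKN1 was below 1 in every group and all 5 were below 1 in HGC27, while SNU16 with DMSO had TFF1 at 1071 and MUC5AC at 618 and YCCEL1 with DMSO had MUC6 at 77.7. With DCB, TFF1 went from 8.13 to 495 and MUC5AC from 1.92 to 151 in SNU719, and MUC6 reached 215 in YCCEL1. The group means of the leukocyte markers PTPRC, CD3E, MS4A1 and CD14 reached at most 6.87 (PTPRC in HGC27 with DCB), and those of the endothelial markers PECAM1 and VWF at most 23.5 (VWF in AGS with DCB). In HGC27 the markers also moved with DCB, VIM from 72246 to 25770 and KRT8 from 71.1 to 300, and the fibroblast marker COL1A1 went from 266 to 1909 in AGS; their part in the results was not tested. Totals of the values per library ran from 7764408 to 9321014, the mitochondrial share from 5.80% to 14.3% and the share of ribosomal protein genes from 4.08% to 11.4%. The study's text names MKN74, another gastric cancer line, among its EBV- lines where the labels say HGC27. In describing a heatmap it names HGC27 instead, as CIMP-, and the line is called here by its label. The comparisons of the response between lines, other than that of HGC27 itself, and the fit over all lines are given with and without it.

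Promoter sequences show what the genes share beyond the rule that chose them. Genes of this kind are commonly bound by the DREAM and MuvB-FOXM1 complexes through a cell cycle homology region, and by NF-Y through CCAAT boxes. In RefSeq promoter windows of 300 bases (250 before and 50 after the start site, GRCh38.p14), which were at hand for 37 of the 44 genes in 44 windows, TTTGAA or TTCGAA on either strand occurred in 32 member windows, against 16.35% of all 35116 windows. CCAAT on either strand occurred in 35 member windows, against 34.61% of all windows. Both motifs were in 27 member windows and in 6.38% of all windows. The median number of CG dinucleotides per window was 23.5 in the members and 14 over all windows. The 7 members TTK, RACGAP1, BIRC5, AURKA, UBE2C, BUB3 and TPX2 had no window. A match describes letters only and is not a binding site, and other spellings of the cell cycle homology region were not searched.

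The 120 bases before the start site are shown for 6 members that recur below, on the gene's strand, with TTTGAA or TTCGAA and CCAAT (either strand) in capitals. None of these stretches overlaps an annotated exon. CCNA2 and TOP2A changed in opposite directions in different lines. Of the motifs searched, these 2 stretches have CCAAT alone, at position -56 in CCNA2 and at -93 and -53 in TOP2A. Both also hold CTTGAA on one strand or the other, a near spelling that was not searched, so a cell cycle homology region is not shown to be absent. KIF11 and CKS2 changed likewise and carry both motifs, with the 6-letter motif at -28 in KIF11 and -29 in CKS2. CDC20 and MKI67 departed from the other members in HGC27 or in the EBV+ lines, and both carry the 2 motifs, which in MKI67 overlap by 1 letter. Motifs were not tested against the response.
CCNA2, chr4:121823884-121824003, minus strand: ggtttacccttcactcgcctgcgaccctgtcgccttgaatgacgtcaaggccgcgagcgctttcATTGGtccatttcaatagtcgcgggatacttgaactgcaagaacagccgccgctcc
TOP2A, chr17:40417897-40418016, minus strand: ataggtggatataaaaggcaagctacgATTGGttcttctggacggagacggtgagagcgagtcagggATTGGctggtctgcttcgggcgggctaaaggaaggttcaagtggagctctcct
KIF11, chr10:92593010-92593129, plus strand: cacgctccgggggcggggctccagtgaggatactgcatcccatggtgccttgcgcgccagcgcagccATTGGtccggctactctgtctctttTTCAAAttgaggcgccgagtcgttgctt
CKS2, chr9:89311075-89311194, plus strand: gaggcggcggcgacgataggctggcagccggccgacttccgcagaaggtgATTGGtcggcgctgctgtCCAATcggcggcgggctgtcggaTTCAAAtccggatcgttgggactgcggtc
CDC20, chr1:43358861-43358980, plus strand: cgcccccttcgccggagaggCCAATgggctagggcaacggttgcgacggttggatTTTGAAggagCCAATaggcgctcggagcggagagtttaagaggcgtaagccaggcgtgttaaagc
MKI67, chr10:128126424-128126543, minus strand: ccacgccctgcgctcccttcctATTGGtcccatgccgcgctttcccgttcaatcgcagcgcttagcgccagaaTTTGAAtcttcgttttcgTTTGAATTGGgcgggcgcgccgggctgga

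After 72 h of DMSO alone, the lines already stood far apart in these genes. All 44 members differed among the 5 lines in DMSO, as did 67.7% of all genes tested. Among genes with a mean of at least 50, a level that all members reach, 92.9% did, so this is close to the background. The mean log2 level of the members was 9.52 in AGS and 9.42 in SNU16, against 8.55 in SNU719, 8.51 in HGC27 and 8.17 in YCCEL1. AGS had the highest DMSO mean of 28 members and SNU16 of the other 16, while YCCEL1 had the lowest of 27, HGC27 of 10 and SNU719 of 7. The ratio of the highest to the lowest line had a median of 2.96 over members. After DCB the order was different: HGC27 then had the highest mean of 22 members, and the median ratio of the highest to the lowest line was 5.41.

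DCB moved these genes in opposite directions in different lines. In HGC27 36 of the 44 members were called higher and 0 lower, while all genes tested were called higher at 14.7% and lower at 9.03%. In SNU719 39 were lower and 0 higher (13.5% of all genes higher and 7.64% lower), and in YCCEL1 28 were lower and 1 higher (14.6% higher and 6.93% lower). In AGS 3 were higher and 7 lower (18.5% higher and 9.13% lower), and in SNU16 none was called (4.5% higher and 2.34% lower). The median log2 fold change of the members was 1.05 in HGC27, -0.95 in SNU719, -0.60 in YCCEL1, -0.14 in AGS and -0.05 in SNU16, and that of all genes lay between 0.01 and 0.12. Quantile normalization moved the median of all genes to 0 in each line (by up to -0.12) and gave member medians of 1.10, -0.94, -0.55, -0.13 and -0.01 in the same order. Among genes with a mean of at least 50, a level that all members reach, 20.4% were higher in HGC27, 15.8% lower in SNU719 and 14.6% lower in YCCEL1. In AGS 20.2% of these genes were higher and 18.1% lower, so that the 3 and 7 members called there are no larger a share than the background. Of the members, 22 rose in HGC27 and fell in both SNU719 and YCCEL1, a pattern whose share over all genes was not computed. With the 4 libraries of each line fitted alone, 26 were higher in HGC27, 23 lower in SNU719 and 13 lower in YCCEL1, and with 1 of the 20 libraries left out in turn 30 of the 36, 30 of the 39 and 21 of the 29 calls held every time.

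**Figure D1:**
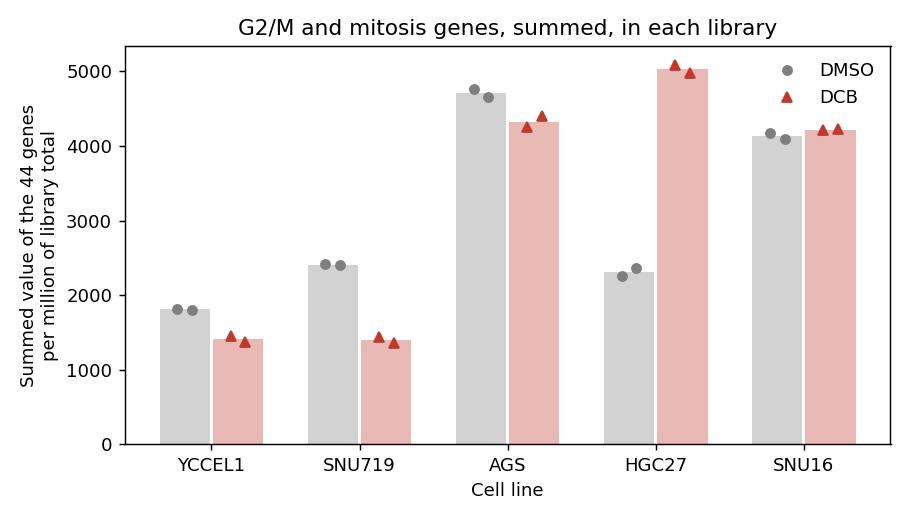
Summed normalized counts of the 44 G2/M and mitosis genes per 1000000 of each library's total (vertical axis), by cell line; points are single libraries (gray circles DMSO, red triangles DCB) and bars are the mean of 2. The sum went from 2314 to 5034 in HGC27 and from 2409 to 1398 in SNU719, and was 4130 and 4221 in SNU16.

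As a share of the library the members were 2314 ± 79.2 per 1000000 in HGC27 with DMSO and 5034 ± 76.1 with DCB (mean ± SD of 2 libraries), a ratio of 2.18. The ratio of DCB to DMSO was 0.58 in SNU719, 0.78 in YCCEL1, 0.92 in AGS and 1.02 in SNU16. The share of ribosomal protein genes and the library total were lower with DCB in every line, whichever way the members went. The ribosomal share went from 11.3% and 11.4% to 7.83% and 7.85% in HGC27, from 5.85% and 5.88% to 4.81% and 4.83% in SNU719, from 8.41% and 8.55% to 7.64% and 7.77% in YCCEL1, from 5.52% and 5.72% to 4.14% and 4.08% in AGS and from 10.1% and 9.99% to 8.67% and 8.52% in SNU16. The part of these shifts in the members' changes was not tested.

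The switch into mitosis is thrown by cyclin-dependent kinase. Of its 7 genes, 6 rose in HGC27, 5 fell in SNU719, 4 fell and 1 rose in YCCEL1, and in AGS 2 rose and 1 fell. CCNA2, which encodes cyclin A2 of S and G2 phase, had 144 and 143 in HGC27 with DMSO and 428 and 432 with DCB. In SNU719 it had 296 and 329 with DMSO and 126 and 129 with DCB, and in YCCEL1 199 and 207 against 129 and 107. The DCB libraries lay above all DMSO libraries in HGC27 and below them in both EBV+ lines. In AGS CCNA2 had 648 and 674 with DMSO and 674 and 732 with DCB, where the groups overlap, and in SNU16 597 and 610 against 571 and 572. Its log2 fold changes were 1.58 ± 0.10 (SE) in HGC27, -1.28 ± 0.10 in SNU719 and -0.79 ± 0.10 in YCCEL1 (limma adjusted p = 5.5e-08, 7.4e-07 and 6.6e-05), and the response differed among the 5 lines with an adjusted p of 4.6e-08.

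CDK1, the kinase that drives entry into mitosis, had 527 and 333 in HGC27 with DMSO and 1643 and 1616 with DCB, so that its rise of 1.96 on the log2 scale stood on DMSO libraries that differed from each other. It fell in SNU719 from 552 and 532 to 238 and 233. Both B-type cyclins were lower with DCB in all libraries of the EBV+ lines, by different amounts that were not tested against each other. CCNB2 fell in SNU719 from 483 and 473 to 209 and 209 (log2 fold change -1.19), whereas CCNB1 went from 537 and 544 to 453 and 448 there and was not called (adjusted p = 0.061). In YCCEL1 the larger change was that of CCNB1, from 628 and 680 to 439 and 382 (-0.67), and CCNB2 changed by -0.30, a call lost without DMSO replicate 1 or either DCB replicate of that line (-0.31 to -0.25). CDC25C, the phosphatase that activates CDK1, fell in SNU719 (-1.43) and AGS (-0.74, lost without DMSO replicate 1 or DCB replicate 1, -0.70 to -0.57) and had 121 and 134 against 130 and 122 in HGC27, where the groups overlap.

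A few members of this group went against most others of their line. CDCA3, which helps degrade the CDK1 inhibitor WEE1, rose in YCCEL1 from 113 and 94.1 to 139 and 167 (log2 fold change 0.56 ± 0.17, limma adjusted p = 0.031). It fell in SNU719 from 147 and 145 to 57.8 and 71.0. The YCCEL1 call was lost without DMSO replicate 2 or DCB replicate 2 (0.43 each) and under quantile normalization (0.41). In AGS, CCNB1 rose from 1177 and 1271 to 1419 and 1655 (0.33 ± 0.09, adjusted p = 0.017) and CKS2, a small CDK-binding protein, from 511 and 562 to 682 and 648 (0.31 ± 0.08, adjusted p = 0.0073). CKS2 had 556 and 563 in HGC27 with DMSO and 1213 and 1211 with DCB, and fell in YCCEL1 from 487 and 497 to 361 and 327. The AGS calls were lost without DMSO replicate 1 (0.27 for CCNB1 and 0.24 for CKS2), and that of CCNB1 also without DCB replicate 2 (0.21) and that of CKS2 without DCB replicate 1 (0.27).

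**Figure D2:**
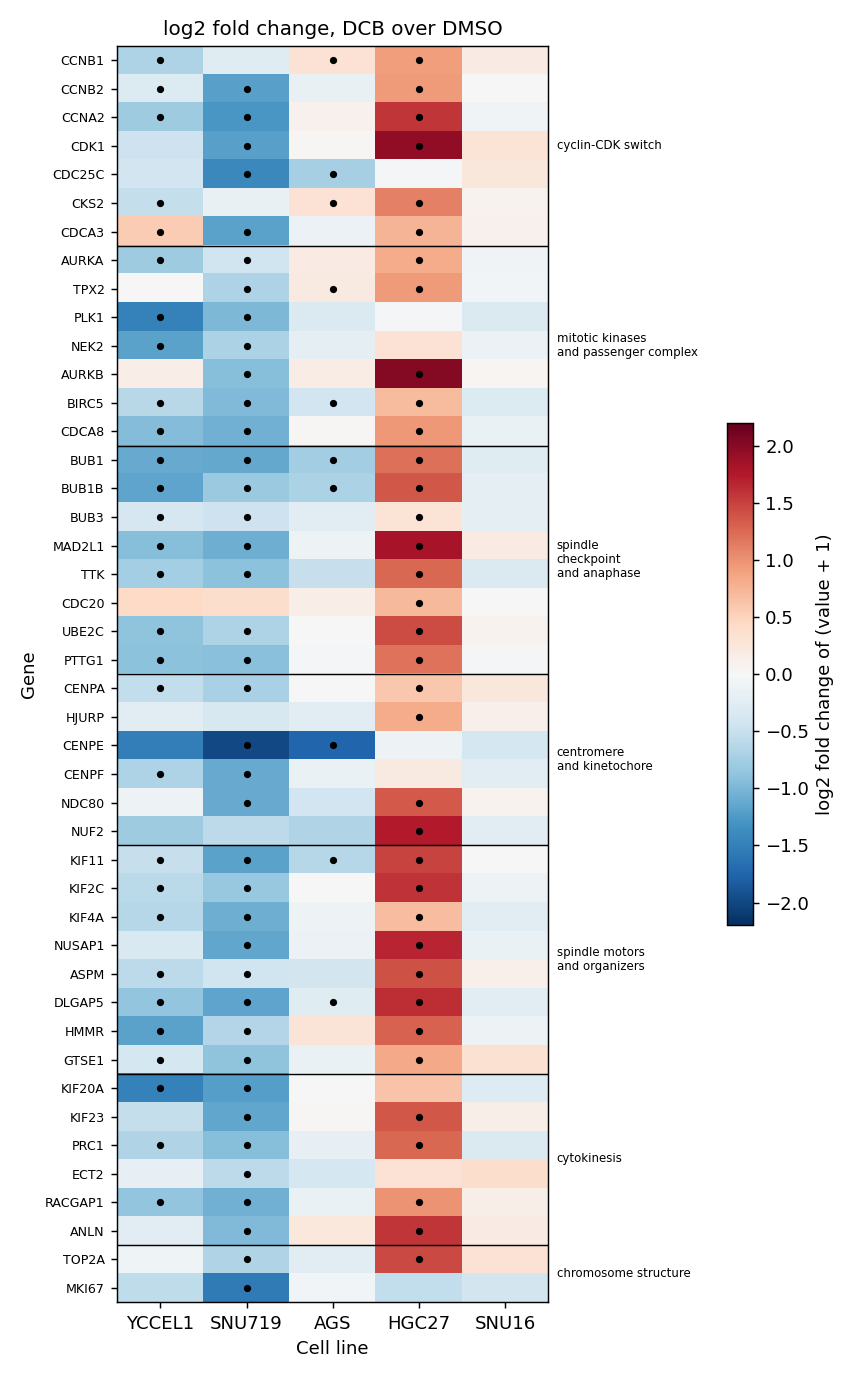
log2 fold change of (value + 1), DCB over DMSO, for each of the 44 genes (rows, grouped by role) in each cell line (columns); red is higher with DCB, blue lower, and a black dot marks an adjusted p below 0.05. The HGC27 column carries 36 dots on red, SNU719 39 and YCCEL1 28 on blue, and SNU16 none.

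Among the mitotic kinases and the chromosomal passenger complex, all 7 genes fell in SNU719, 5 fell in YCCEL1 and 5 rose in HGC27. TPX2, which brings AURKA to the spindle and activates it, had 1032 and 1176 in HGC27 with DMSO and 2138 and 2060 with DCB, and in SNU719 1235 and 1232 against 773 and 762. In YCCEL1 it had 852 and 843 against 842 and 842, in AGS 1917 and 1901 against 2215 and 2184, and in SNU16 1767 and 1765 against 1741 and 1650. The DCB libraries lay above DMSO in HGC27 and AGS and below in SNU719, while the YCCEL1 groups differed by -0.01 on the log2 scale, and the response differed among the lines (limma adjusted p = 9.4e-08). Its rise in AGS (0.20 ± 0.06, adjusted p = 0.017) was lost when any 1 of the 4 AGS libraries was left out (0.19 to 0.21). AURKB, the kinase of the passenger complex, had the largest fold change of a member in HGC27, from 201 and 263 to 993 and 873 (2.01 ± 0.26, adjusted p = 6e-05). Its libraries were uneven elsewhere, with 170 and 270 in YCCEL1 with DCB and 691 and 488 in AGS with DCB.

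PLK1 and NEK2, kinases of spindle pole maturation and separation, were not called in HGC27. PLK1 had 577 and 576 in HGC27 with DMSO and 554 and 573 with DCB (log2 fold change -0.03), in YCCEL1 200 and 272 against 92.5 and 73.4 (-1.49 ± 0.14, limma adjusted p = 3.7e-06), and in SNU719 538 and 491 against 273 and 244 (-0.99). In AGS and SNU16 its DCB libraries also lay below all DMSO libraries without passing the test (-0.32 in each, adjusted p = 0.12 and 0.23). NEK2 changed by -1.17 in YCCEL1 and -0.70 in SNU719, both called, and by 0.32 in HGC27 (adjusted p = 0.11). The passenger subunits BIRC5 (survivin) and CDCA8 (borealin) rose in HGC27, from 568 and 480 to 840 and 855 and from 380 and 396 to 767 and 738, and fell in both EBV+ lines.

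All 8 genes of the spindle checkpoint and anaphase rose in HGC27, and 7 of them fell in SNU719 and in YCCEL1. UBE2C, the ubiquitin-conjugating enzyme of the anaphase-promoting complex, had 266 and 272 in HGC27 with DMSO and 750 and 707 with DCB (1.43 ± 0.11, limma adjusted p = 4.2e-07). It had 441 and 446 against 233 and 246 in YCCEL1, 470 and 493 against 258 and 353 in SNU719, 856 and 895 against 909 and 863 in AGS, and 1257 and 1184 against 1295 and 1266 in SNU16. The groups overlap in AGS, and the F-test among lines gave an adjusted p of 7.5e-07. MAD2L1, the checkpoint protein that seizes CDC20, had 176 and 144 against 559 and 559 in HGC27 (1.81 ± 0.16) and fell in SNU719 (-1.07) and YCCEL1 (-0.94). BUB1 and BUB1B, a kinase and a related protein of the checkpoint, rose in HGC27 (1.22 and 1.36) and fell in the 3 CIMP+ lines, in AGS by -0.77 and -0.70. The AGS calls were lost without DMSO replicate 2 or DCB replicate 1, and that of BUB1B also without DMSO replicate 1 (-0.74 to -0.53 over both genes), and the SNU719 call of BUB1B without DMSO replicate 1 or DCB replicate 2 (-0.52 to -0.46). PTTG1, the securin that holds back separase, and TTK, the kinase that recruits checkpoint proteins, rose in HGC27 (1.20 and 1.27) and fell in both EBV+ lines, and neither was called in AGS (-0.04 and -0.50). The falls of TTK were lost in SNU719 (-0.90) without DCB replicate 2 (-0.57) and in YCCEL1 (-0.75) without DMSO replicate 1 or DCB replicate 1 (-0.66 to -0.61). BUB3, their partner, had the smallest called rise in HGC27 (0.31), which was lost without DMSO replicate 2 or DCB replicate 1 (both 0.25).

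CDC20, the activator of the anaphase-promoting complex, was called lower in no line. It had 171 and 157 in YCCEL1 with DMSO and 189 and 260 with DCB, 269 and 185 against 335 and 256 in SNU719, and 734 and 735 against 874 and 751 in AGS. In HGC27 it had 611 and 676 against 1118 and 991, and in SNU16 1623 and 1407 against 1471 and 1524. Only the HGC27 change passed the test within a line (0.71 ± 0.18, limma adjusted p = 0.012), and it was lost without DMSO replicate 1 (0.64) or DCB replicate 1 (0.62). Its F-test among lines gave an adjusted p of 0.21. Over the 5 lines together it was the only member called higher (0.33 ± 0.10, adjusted p = 0.02), a call lost when HGC27 was left out (0.24).

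Of the 6 kinetochore genes, 4 rose in HGC27, 4 fell in SNU719 and 2 in YCCEL1. NDC80, a microtubule-binding subunit of the outer kinetochore, had 264 and 276 in HGC27 with DMSO and 688 and 696 with DCB, 225 and 162 against 110 and 70.9 in SNU719, and 195 and 203 against 240 and 140 in YCCEL1. It had 466 and 432 against 332 and 338 in AGS, and 410 and 453 against 459 and 449 in SNU16. The YCCEL1 groups overlap, and the F-test among lines gave an adjusted p of 0.00064, which became 0.11 when HGC27 was left out. NUF2, its partner in the same complex, rose in HGC27 from 196 and 129 to 635 and 452 (1.75 ± 0.37). HJURP, the chaperone that loads the centromeric histone CENPA, rose from 273 and 358 to 555 and 549 (0.82 ± 0.25) and was called in no other line. The HJURP call was lost without HGC27 DMSO replicate 1, DCB replicate 1 or DCB replicate 2 (0.62 to 0.83), and that of CENPA in HGC27 (0.60) without any 1 of its 4 libraries (0.53 to 0.66). CENPA, the centromeric histone itself, was also called lower in YCCEL1 (-0.54), a call lost in 15 of the 20 fits with 1 library left out, and in SNU719 (-0.72), lost without DMSO replicate 1 or DCB replicate 1 (-0.68 to -0.56).

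CENPE, a kinetochore motor, had 247 and 1107 in HGC27 with DMSO and 267 and 870 with DCB. These pairs of libraries differ by more than the treatments do, and no direction can be read there. In AGS, where its libraries were close, it went from 1046 and 1191 to 309 and 361 (log2 fold change -1.74 ± 0.57, limma adjusted p = 0.036), a call lost without any 1 of the 4 AGS libraries (-1.85 to -1.63). In SNU719 it went from 234 and 439 to 83.7 and 77.6 (-1.98, adjusted p = 0.023), lost without DMSO replicate 2 (-1.52), DCB replicate 1 (-2.03) or DCB replicate 2 (-1.92). In YCCEL1 the DCB libraries had 47.1 and 45.4 against 128 and 142 (-1.52, adjusted p = 0.076). CENPF, a large protein of the outer kinetochore, fell in SNU719 (-1.10) and YCCEL1 (-0.68) and had 1202 and 1252 against 1473 and 1337 in HGC27 (0.19, adjusted p = 0.42).

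All 8 spindle motors and organizers rose in HGC27, all 8 were called lower in SNU719 and 7 in YCCEL1. DLGAP5, which stabilizes microtubules at kinetochores, had 297 and 296 in HGC27 with DMSO and 842 and 986 with DCB (1.62 ± 0.09, limma adjusted p = 8.9e-09). It had 223 and 216 against 116 and 124 in YCCEL1, 604 and 582 against 259 and 271 in SNU719, 976 and 1001 against 816 and 823 in AGS, and 712 and 783 against 619 and 633 in SNU16. The DCB libraries lay below the DMSO libraries in every line but HGC27, although the AGS call (-0.27, adjusted p = 0.032) was lost without any 1 of that line's libraries (-0.29 to -0.25) and SNU16 did not pass (-0.25, adjusted p = 0.10). KIF11, the plus-end motor that pushes spindle poles apart, had 434 and 415 against 1206 and 1180 in HGC27 and 513 and 471 against 207 and 228 in SNU719. In AGS it fell from 847 and 917 to 563 and 576 (-0.63 ± 0.08, adjusted p = 4.9e-05). That was the only one of the 10 member calls in AGS that held in each of the 20 fits with 1 library left out.

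Other genes of the spindle had like values. In HGC27, NUSAP1 (a microtubule bundling protein) changed by 1.67, KIF2C (a microtubule-depolymerizing kinesin) by 1.59 and ASPM (a protein of spindle poles) by 1.39, all called. The ASPM call in SNU719 (-0.44) was lost in 16 of the 20 fits with 1 library left out, and that in YCCEL1 (-0.57) without DMSO replicate 1 or DCB replicate 2 (-0.48 to -0.41). HMMR, a spindle assembly factor, fell in YCCEL1 from 169 and 169 to 69.9 and 79.2 (-1.17) and rose in HGC27 from 249 and 179 to 477 and 563 (1.29). KIF4A, a chromosome-bound kinesin, rose by 0.68 in HGC27, a call lost without any 1 of that line's libraries (0.61 to 0.74). GTSE1, a microtubule-binding protein of G2, rose in HGC27 (0.84) and fell in SNU719 (-0.88) and YCCEL1 (-0.39, lost without any 1 of the YCCEL1 libraries).

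**Figure D3:**
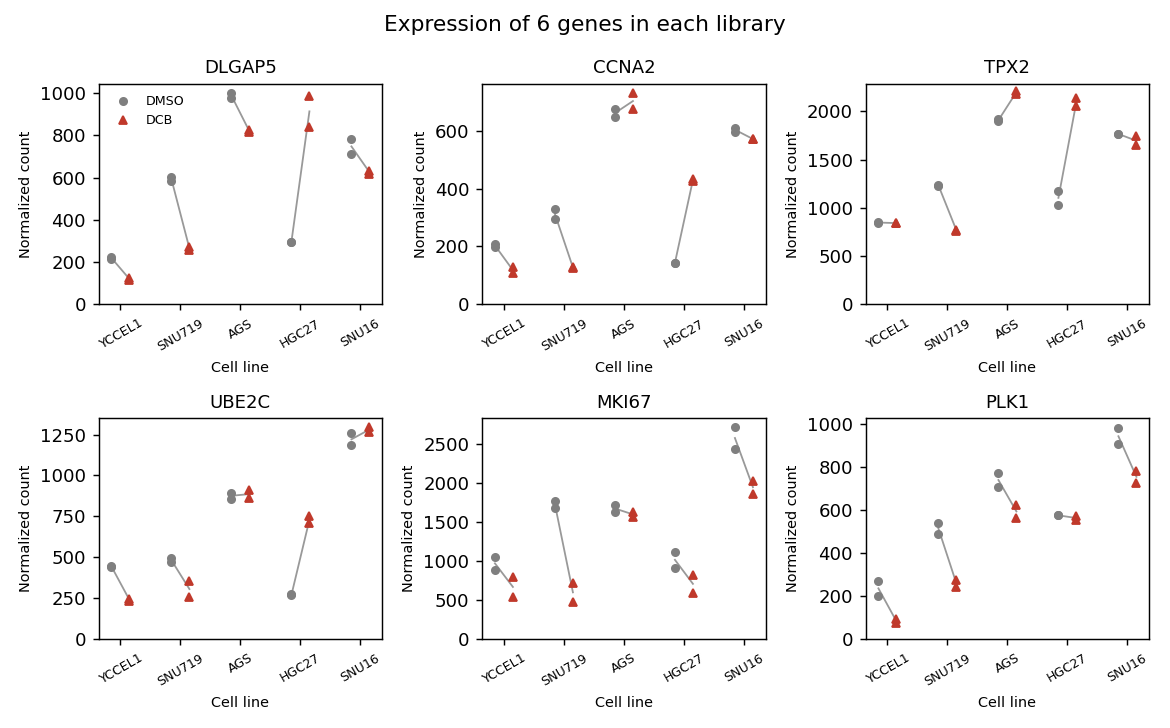
Normalized count (linear axes from 0) of 6 genes in each library, by cell line, with DMSO as gray circles, DCB as red triangles and lines joining the group means. DLGAP5, CCNA2, TPX2 and UBE2C rise in HGC27 and fall in SNU719, while MKI67 and PLK1 do not rise in HGC27.

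The 6 cytokinesis genes all fell in SNU719, 3 fell in YCCEL1 and 4 rose in HGC27. ANLN, the scaffold of the contractile ring, had 501 and 505 in HGC27 with DMSO and 1512 and 1484 with DCB, and 776 and 766 against 384 and 402 in SNU719. It had 403 and 446 against 412 and 306 in YCCEL1, 1152 and 1080 against 1269 and 1343 in AGS, and 1174 and 1214 against 1487 and 1234 in SNU16. The DCB libraries of AGS and SNU16 lay above their DMSO libraries without passing the test (0.23 and 0.18, adjusted p = 0.19 and 0.48), and the YCCEL1 groups overlap. The response differed among lines with a limma adjusted p of 9.9e-07. KIF20A, the kinesin that carries passenger proteins to the midzone, fell in YCCEL1 from 88.5 and 120 to 25.7 and 51.2 (-1.48 ± 0.25) and had 436 and 348 against 592 and 616 in HGC27 (0.63, adjusted p = 0.086). PRC1 and RACGAP1, organizers of the central spindle, rose in HGC27 (1.27 and 1.00) and fell in both EBV+ lines, and KIF23, the motor partner of RACGAP1, rose in HGC27 (1.37) and fell in SNU719 (-1.14). ECT2, which activates the GTPase of the ring, fell in SNU719 alone among the single lines (-0.57), and that call was lost without any 1 of the SNU719 libraries (-0.61 to -0.53).

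Topoisomerase and Ki-67 went apart in HGC27. TOP2A, which untangles sister chromatids, had 1253 and 1384 with DMSO and 3724 and 3521 with DCB there (1.46 ± 0.14, limma adjusted p = 2.8e-06). It had 1705 and 1477 against 1643 and 1331 in YCCEL1, 1352 and 1094 against 851 and 693 in SNU719, 2647 and 2270 against 1962 and 2228 in AGS, and 3637 and 3145 against 4221 and 4235 in SNU16. MKI67, the coat of mitotic chromosomes and a common marker of proliferation, had 913 and 1116 in HGC27 with DMSO and 824 and 590 with DCB. Its DCB libraries lay below both DMSO libraries while those of TOP2A lay above, although the MKI67 change did not pass the test (-0.53 ± 0.21, adjusted p = 0.086). It fell in SNU719 from 1682 and 1770 to 724 and 473 (-1.56) and had 2715 and 2436 against 2030 and 1861 in SNU16 (-0.40, adjusted p = 0.34). In each of the 5 lines the mean of MKI67 was lower with DCB. The 8 members not called in HGC27 were MKI67, PLK1, CDC25C, CENPE, CENPF, NEK2, KIF20A and ECT2, and 0 of the 44 were called lower there (1 at an unadjusted p under 0.05).

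The SNU16 line stood at the other extreme. No member was called by limma, and at an unadjusted p under 0.05, 3 were higher and 5 lower. Of the 44, 12 had both DCB libraries above the DMSO libraries, 19 had both below and 13 overlapped. In HGC27 40 were above and 2 below, and in AGS 7 above and 24 below. Those below were 41 in SNU719 and 35 in YCCEL1. The share of all genes with such orders was not computed, so these counts describe the members only. The log2 fold changes in SNU16 ran from -0.40 to 0.39, a narrower range than in any other line.

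The differences between lines were then tested directly. The response differed among the 5 lines for 41 of the 44 members (34.2% of all genes tested, and 52.6% of genes with a mean of at least 50), the others being CDC20, HJURP and CENPE. Without HGC27 the number was 30, and 25.7% of all genes. The response of HGC27 was above the mean of the other 4 lines for 39 members and below it for 0 (11.1% of all genes above and 12.5% below), by 2.29 ± 0.17 for CDK1 and 2.25 ± 0.10 for DLGAP5 on the log2 scale. The 5 members for which this difference did not pass were MKI67, CDC20, ECT2, CDC25C and CENPE. That of SNU719 was below the other lines for 37 and above for 0 (6.2% of all genes above and 6.1% below), and that of YCCEL1 below for 22 and above for CDCA3 (7.52% above and 5.54% below). In AGS only 4 members differed from the other lines, KIF11, ASPM and TOP2A being lower and CDCA8 higher (9.41% of all genes above and 6.31% below). In SNU16 CDC25C and GTSE1 were higher and 0 members were lower (2.79% above and 5.47% below). Each mean of other lines holds HGC27 or is set against it, so these 5 differences are not separate evidence. With HGC27 left out and each line set against the other 3, a fit added after the data were seen, SNU719 was below for 20 members and YCCEL1 below for 10 and above for 2 (5.1% and 5.05% of all genes below). AGS was then above for 17 and below for 0 (10.3% above and 7.07% below) and SNU16 above for 18 and below for 0 (4.26% above and 7.79% below), so that the few members that differed in these lines depend on HGC27 being in the mean. Without HGC27 the F-test kept an adjusted p below 0.05 for CCNA2 (0.00012), TPX2 (6.3e-06), UBE2C (0.003), DLGAP5 (9.1e-05), ANLN (0.0024) and TOP2A (0.034).

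The series compares EBV+ with EBV- lines. The mean response of YCCEL1 and SNU719 was below that of AGS, HGC27 and SNU16 for 40 members and above it for 0, with a member median of -0.99 (10.5% of all genes above and 9.17% below). With HGC27 left out, a fit added after the data were seen, it was below for 28 members with a median of -0.67, and 7.25% of all genes were below. This compares the mean of YCCEL1 and SNU719 and not each line. For some members both lay under AGS and SNU16. MAD2L1 changed by -0.94 and -1.07 in the EBV+ lines and by -0.11 and 0.18 in AGS and SNU16. UBE2C changed by -0.89 and -0.67 against 0.02 and 0.07. For others they did not, as with KIF11, which changed by -0.51 in YCCEL1 and -0.63 in AGS. The tests rest on the spread between libraries. They compare 2 lines with 3 and do not measure the spread between EBV+ or between EBV- lines.

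The split by CIMP status gave similar numbers with HGC27 and lower ones without. The mean response of YCCEL1, SNU719 and AGS was below that of HGC27 and SNU16 for 41 members and above for 0 (12.8% of all genes above and 8.94% below), with a median of -1.09. Without HGC27, which leaves SNU16 as the single CIMP- line, 18 members were below, with a median of -0.54 and 4.26% of all genes below. MKI67 (-0.26), CDC20 (-0.03) and CENPE (-1.50, limma adjusted p = 0.056) were the 3 members not called in the comparison of all 5 lines.

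A fit over the 5 lines, with the line as a term, called few of these genes. It gave 1 member higher and 5 lower (17.9% of all genes higher and 6.94% lower), with a member median of -0.09. The 5 were CENPE (-1.15 ± 0.28), PLK1 (-0.63 ± 0.14), MKI67 (-0.62 ± 0.15), CDC25C (-0.47 ± 0.17) and CENPF (-0.40 ± 0.12). All are among the 8 members not called in HGC27, which is itself part of this fit, so the overlap is not separate evidence. Leaving out HGC27 gave 27 lower and 0 higher, with a median of -0.43 and 8.39% of all genes lower. The CDC25C call was lost in 11 of the 20 fits with 1 library left out (-0.49 to -0.39), and that of CENPF without YCCEL1 DMSO or DCB replicate 2 or either SNU719 DMSO replicate (-0.37 to -0.33).

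Other cell cycle genes, from lists that hold no member, were set beside the 44. For these lists, the background is given as shares of genes with a mean of at least 50. Of such genes 20.4% rose and 16.9% fell in HGC27, 15.5% and 15.8% in SNU719, and 15% and 14.6% in YCCEL1. In AGS the shares were 20.2% and 18.1%, and in SNU16 4.78% and 4.79%. Of 60 other mitotic genes, 42 rose and 2 fell in HGC27, 43 fell and 0 rose in SNU719, and 16 fell and 1 rose in YCCEL1, with 8 higher and 10 lower in AGS and 0 in SNU16. ZWINT, a kinetochore protein, and NCAPH, a condensin subunit, changed by 1.79 and 1.98 in HGC27 and by -1.08 and -1.50 in SNU719. Of 38 G1/S and replication genes, 36 rose and 1 fell in HGC27, with a median of 1.67 against 1.05 for the members. RRM2, a subunit of ribonucleotide reductase, went from 235 and 251 to 1796 and 1910 there, and CDC6, which licenses origins, changed by 3.09. In YCCEL1 the order was the other way round: 8 of the 38 fell (median -0.25), against 28 of the 44 members (median -0.60). In SNU719 29 of the 38 fell and 1 rose (median -0.84), in AGS 6 rose and 6 fell, and in SNU16 1 rose and 0 fell.

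**Figure D4:**
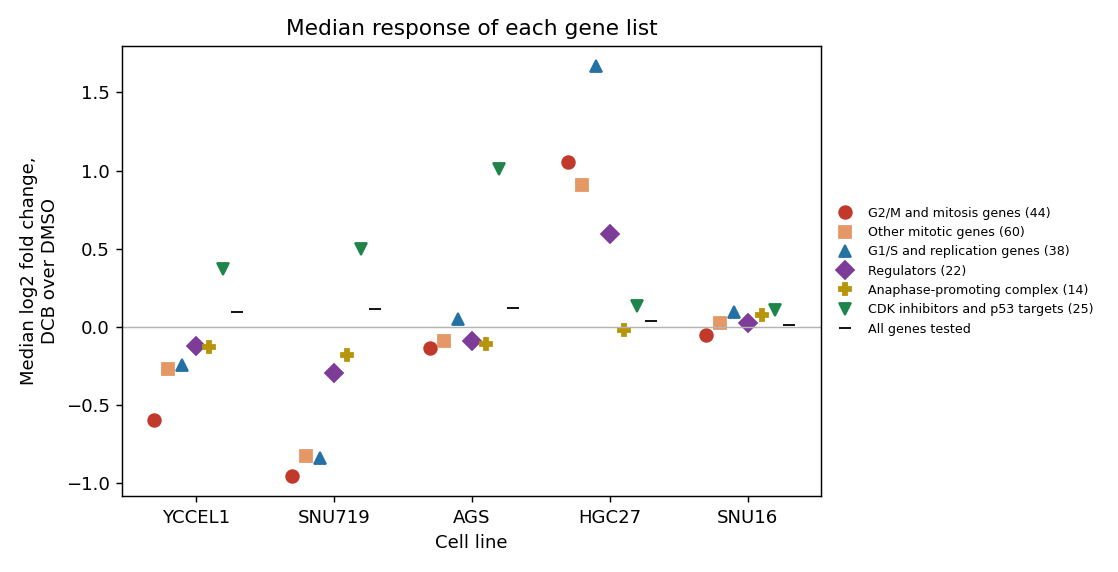
Median log2 fold change, DCB over DMSO (vertical axis), of the 44 genes, of 5 other gene lists and of all 27350 genes tested, by cell line; each symbol is 1 list in 1 line. The G2/M and G1/S lists stand highest in HGC27 (1.05 and 1.67) and lowest in SNU719 (-0.95 and -0.84), with the CDK inhibitors and p53 targets at 0.50 in SNU719 and 1.01 in AGS.

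Genes that regulate the mitotic program were called in part. Of 22 such genes, 13 rose and 0 fell in HGC27, and 9 fell and 1 rose in SNU719. In YCCEL1 3 were higher and 5 lower, in AGS 4 and 3, and in SNU16 1 and 0. The AGS counts are no larger a share than among genes with a mean of at least 50 (20.2% higher and 18.1% lower). FOXM1, a transcription factor of G2/M genes, had 529 and 530 in HGC27 with DMSO and 1139 and 1259 with DCB, and 549 and 507 against 224 and 267 in SNU719. It was not called in YCCEL1, AGS or SNU16 (-0.18, -0.14 and -0.33). MYBL2, which binds the same promoters with MuvB, had 322 and 346 against 1512 and 1479 in HGC27 (2.16 ± 0.06, limma adjusted p = 4.8e-12). It fell in SNU719 (-0.93) and rose slightly in YCCEL1, AGS and SNU16 (0.21, 0.31 and 0.29, all called). E2F1, a factor of S phase entry, changed by 2.09 in HGC27 and -0.92 in SNU719.

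Of 25 CDK inhibitors and p53 targets, 18 rose and 2 fell in AGS, 13 rose and 4 fell in YCCEL1, 11 and 3 in SNU719, 9 and 5 in HGC27 and 3 and 2 in SNU16. CDKN1A, the p21 inhibitor of cyclin-dependent kinases, rose in every line, from 114 and 123 to 430 and 555 in HGC27 (2.04), where the members rose, and from 972 and 944 to 2736 and 2642 in SNU719 (1.49), where they fell. MDM2, a p53 target and its ubiquitin ligase, rose in AGS (1.67), SNU719 (0.89) and YCCEL1 (0.37) and had 194 and 232 against 167 and 216 in HGC27. CDKN2B, the p15 inhibitor, was listed at 0 in both DMSO libraries of YCCEL1 and had 48.6 and 42.9 with DCB, and it rose in SNU719 from 201 and 221 to 1004 and 959. Of 14 genes of the anaphase-promoting complex and its regulators, 3 rose and 1 fell in HGC27 and 5 fell in SNU719. Among genes with a mean of at least 50, 20.4% rose and 16.9% fell in HGC27 and 15.8% fell in SNU719. The HGC27 counts of this list are therefore not above the background by any clear margin. FBXO5, an inhibitor of the complex, was called in both lines (1.09 and -0.69). Of 15 reference genes, 7 rose and 6 fell in HGC27, GAPDH by -0.62, and 2 rose and 7 fell in SNU719.

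Among genes outside the list, the 10 whose log2 level over the 20 libraries was most like the mean of the members were TUBB, SASS6, FBXO5, STIL, API5, SMARCC1, IARS2, SHCBP1, CENPQ and KIF22, with Pearson r from 0.93 to 0.96. The 20 points share lines and treatments, so r describes the likeness only. TUBB, a tubulin, had the highest r (0.96), SASS6 and STIL act in centriole duplication, and CENPQ is a kinetochore protein.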

How the data were processed

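RNA was sequenced in 20 libraries of 5 gastric cancer cell lines, grouped by line and treatment from the labels into 10 groups of 2. The deposited values are a signal in no named unit: estimated counts that the authors normalized between libraries, neither whole nor negative, and for most genes not whole multiples of a read, so that sequencing depth is unknown and no count model was used. According to the submitters' processing notes, DESeq2 1.14.1 was used after counting with featureCounts 1.5.1 and alignment with STAR 2.5.2b, and the build named is GRCh37. The study's methods instead describe 3' libraries and GRCh38. Of the 44 genes, 43 started and ended in the table exactly where GENCODE v44 (GRCh38) places them, so coordinates are given in that build.

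Genes whose values summed to more than 10 over the libraries (27350 of 60232) were fitted on log2(value + 1) with limma 3.58.1 in R 4.3.3 (10 groups, moderated tests with a trend), and p-values were adjusted by Benjamini-Hochberg over these genes. Fits over the 5 lines together had the line as a term. The fits were tested on simulated data, with known changes put into HGC27 and independent normal noise at the fitted spread. This checks the recovery of such changes only, and not the normalization, uneven libraries or the origin of the replicates. The 44 genes and the other lists were chosen with earlier results of these data known. For each role group, the values in every library are given for the gene with the smallest adjusted p in the F-test among lines. For genes called against the direction of most called members of their line, values are given in that line and in some or all others. Other members are named by their roles. Promoter windows came from RefSeq. Alternatives were other pseudocounts (0.5 and 5), filters, scalings, a fit without trend, a replicate block, each line alone, a fold limit and leaving out each library. One of the leukocyte markers is not reported here.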

Additional observations from a re-analysis of the deposited data

Results flagged for a closer look

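Each result here was singled out because the response to DCB differed between cell lines by a test of the difference itself. In the limma F-test among the 5 lines, 41 of the 44 genes passed, against 34.2% of all genes tested. The gene with the smallest adjusted p in its role group gave 9.5e-09 (DLGAP5), 4.6e-08 (CCNA2), 9.4e-08 (TPX2) and 7.5e-07 (UBE2C). For the other role groups this F-test gave adjusted p of 9.9e-07 (ANLN), 1.6e-05 (TOP2A) and 0.00064 (NDC80). Against the mean of the other lines, the response was higher in HGC27 for 39 genes (11.1% of all genes tested) and lower in SNU719 for 37 (6.1%). It was lower in YCCEL1 for 22 (5.54%) and higher for 1 (7.52%). In AGS it was lower for 3 (6.31%) and higher for 1 (9.41%), and in SNU16 higher for 2 (2.79%). The counts in AGS and SNU16 are too few to be read as a result about these genes. The response of the EBV+ lines was below that of the EBV- lines for 40 genes (9.17% of all genes tested). That of the CIMP+ lines was below that of the CIMP- lines for 41 (8.94%). With HGC27 left out, the NDC80 value became 0.11. The differences of AGS and SNU16 from the other lines were then higher for 17 and 18 genes (10.3% and 4.26% of all genes tested).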

How the results depend on the processing

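Of the summary counts under all alternatives, 729 stayed within 1.5 times the reported count and 106 did not. Of the single-gene values entered in this tally, 1551 kept their direction and side of the threshold, 73 lost the call and none reversed. The tally does not hold every single-gene call named above. The calls lost with 1 library left out, given above gene by gene, are more than these 73. With each line fitted alone, 13 genes were lower in YCCEL1 and 23 in SNU719, with 0 higher in YCCEL1 and 1 in AGS; these fits have fewer libraries. With an absolute log2 fold change above 1 also required, the counts were 22 higher in HGC27, 19 lower in SNU719, 6 lower and 0 higher in YCCEL1, 1 lower and 0 higher in AGS, 21 lower in the EBV and 26 in the CIMP comparison, 1 lower and 0 higher over the 5 lines, and, against the other lines, 20 lower in SNU719, 6 lower and 0 higher in YCCEL1, and 0 in AGS and SNU16. With HGC27 left out, chosen after seeing the data, 18 were lower in the CIMP comparison, 27 were lower and 0 higher over the lines, and, against the other 3 lines, 20 were lower in SNU719, 10 lower and 2 higher in YCCEL1, 17 higher and 0 lower in AGS and 18 higher in SNU16. Without a trend, AGS had 1 higher and 4 lower, the fit over lines 3 lower, and the differences from the other lines 0 higher and 1 lower in AGS and 1 higher in SNU16. Quantile normalization gave 0 higher in YCCEL1, and 0 higher in YCCEL1 and AGS against the other lines; testing every gene above 0 gave 1 lower in AGS and 1 higher in SNU16, a mean of at least 20 gave 3 higher in AGS, and median-of-ratios rescaling 1 higher in SNU16. The cause was not tested.

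Leaving out each library in turn gave 0 to 3 higher in AGS (0 without DMSO replicate 1 and 1 without either DCB replicate) and 2 to 9 lower (2 without DMSO or DCB replicate 1), 0 to 2 higher in YCCEL1 (0 without DMSO or DCB replicate 2 and 2 without DCB replicate 1), 0 to 1 higher in SNU719 (1 without DMSO replicate 1), 0 to 1 lower in HGC27 (1 without DCB replicate 1) and 3 to 8 lower over the 5 lines (8 without any 1 HGC27 library and 3 without either SNU719 DMSO library). Against the other lines it gave 0 to 3 higher and 1 to 3 lower in AGS, 0 to 2 higher and 0 to 1 lower in SNU16, and 0 to 1 higher in YCCEL1. No pairing by replicate number was seen, since deviations of same-numbered libraries correlated at -0.0386 to 0.0253 over 14361 genes. This does not settle whether same-numbered cultures were paired. The replicate block gave 27 lower in YCCEL1, 38 in SNU719 and 35 higher in HGC27, and moved by over 1.5 times the count over the 5 lines (3 lower) and those against the other lines that were higher in YCCEL1, AGS and SNU16 (0 each). The depth behind the values is unknown, and 2 libraries a group limit the precision.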
